A study of Danio rerio with 6 samples.

Results

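The L2 LINE families are the 62 annotated families of the L2 superfamily among the long interspersed nuclear elements (LINEs) of zebrafish, each with a total of 10 or more counts over the 6 libraries. They were taken from the superfamily and class given with each transposable element (TE) family in the count tables, without use of the comparison between treatments. They are 62 of 35218 counted features, of 2384 TE families and of 342 LINE families, and 0 families of the superfamily fell under the count minimum. By name, 40 begin with L2, 14 with CR1, 7 with Crack and 1 with Daphne, which are names of related lineages in repeat collections. RNA was sequenced from zebrafish embryos of the Tübingen strain at shield stage, 6 h after injection of zygotes with 4.5 ng of a morpholino (MO). The FZNF MO is a translation blocker directed at the start site shared by many FiNZ zinc finger genes (FZNFs), and the control was a mix of scrambled MOs, in 3 libraries each. Batches 1 and 2 were collected on day 12 and batch 3 on day 17 of the same month, each batch with 1 FZNF MO library and 1 scrambled MO library of pooled embryos. All embryos were injected, and no uninjected group was analysed here. Because the FZNF MO blocks translation, RNA levels are no measure of the knockdown of FZNF proteins.

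L2 elements are non-LTR retrotransposons. An autonomous copy is transcribed into RNA and encodes a reverse transcriptase, which copies that RNA into DNA at a nicked genomic target, a process named target-primed reverse transcription. In mammals L2 is known mainly from old, decayed copies, whereas fish genomes hold many L2 lineages. A family count here sums reads over all copies of a family, so RNA of a complete element, of a truncated copy and of a copy lying within the transcript of another gene cannot be told apart. Counts were not corrected for the length or copy number of a family, and related families can share reads.

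A stretch of 31 bases was shared by 28 of the 62 L2 families, of a kind that lies in the conserved reverse transcriptase reading frame of LINEs. It was found where the predicted binding motif of 1 zebrafish zinc finger protein matches the family consensus in the study's supplement, a list held here only in part and used only for its letters. All 28 stretches hold CCNCANGG, with N standing for any base, and in all 28 it begins at base 8. At 14 of the 31 positions every family has the same base, and at 16 positions at least 90% of them do. The stretches were picked by 1 motif, which fixes part of this likeness. The same motif matched 12 families outside the L2 superfamily, of which 9 hold CCNCANGG, and no wider set of stretches was searched. The shared stretch is printed for L2 families that hold it and are described with a value in each library, and for Crack-6_DR as 1 of the families named Crack. It runs 5′ to 3′ on the consensus strand, with CCNCANGG in capitals. The top line gives the most frequent base at each position over the 28 families. At the N before the last GG, A and G were equally frequent, and G is printed.
most frequent base: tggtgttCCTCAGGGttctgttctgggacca
L2-13_DRe: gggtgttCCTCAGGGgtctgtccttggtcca
L2-41_DRe: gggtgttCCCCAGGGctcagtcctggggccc
L2-4_DRe: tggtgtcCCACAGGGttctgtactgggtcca
L2-56_DR: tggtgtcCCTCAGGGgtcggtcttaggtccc
L2-17_DRe: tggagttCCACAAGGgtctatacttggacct
CR1-18_DR: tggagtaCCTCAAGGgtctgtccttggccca
CR1-42_DR: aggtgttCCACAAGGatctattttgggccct
CR1-44_DR: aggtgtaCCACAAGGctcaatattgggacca
CR1-37_DR: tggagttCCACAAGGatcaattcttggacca
L2-53_DR: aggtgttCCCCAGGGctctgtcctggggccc
Crack-6_DR: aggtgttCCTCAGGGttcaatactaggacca

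Over all pairs of the 28 stretches, identity had a median of 71.0% and ran from 51.6% to 93.5%. Families named CR1 and Crack carry the capitals in the same place as families named L2. Because 1 motif picked every stretch, this placement cannot show whether the families of different names are alike. L2-1_DR, the family with the most reads, had no stretch of this kind in the list, and 3 others of its consensus were matched by other motifs. The shortest of these is shown on the strand opposite to the consensus because L2-1_DR carries most of the counts described next, and it has no capitals.
L2-1_DR: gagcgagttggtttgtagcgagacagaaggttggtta

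The libraries held 16306069 to 20567549 counts. All 26 shield-stage markers found in the tables had a mean of at least 1 CPM (counts scaled to a common library total), and by edgeR 4 of them (15.4%) were called higher and 1, tbx6, lower (3.85%) with the FZNF MO, beside 3.27% and 2.18% of all tested features. Of 20 markers of later or other tissues found, 8 reached that mean and 4 were at 0 in all libraries. Their summed level was 127.5 to 200.9 CPM with the scrambled MO and 146.8 to 198.4 CPM with the FZNF MO. The oocyte coat gene zp2.1 was called higher, at 21.1 ± 4.46 CPM with the FZNF MO against 11.5 ± 4.07 CPM with the scrambled MO (SD, n = 3; log2 fold change 0.90, SE 0.22, edgeR adjusted p = 0.0362), and its part in the L2 values was not tested. The other oocyte markers tested, zp3, zp3b, zar1, gdf9 and bmp15, had log2 fold changes of -0.02, 0.14, -0.26, -0.36 and -0.08, none of them called. In RNA of pooled whole embryos, fewer cells of a type and less RNA per cell cannot be told apart.

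L2 families took a small share of the counts in every library, and the share was higher with the FZNF MO within each pair. It was 0.125%, 0.197% and 0.206% in FZNF MO libraries of batches 1, 2 and 3, and 0.116%, 0.171% and 0.164% in the scrambled MO libraries. Both libraries of batch 1 lay below the other 4, so the groups overlapped. The widest exact Clopper-Pearson 95% interval of these shares was 0.204% to 0.209%, for the FZNF MO library of batch 3, and such intervals cover counting error only. The means were 0.176 ± 0.0445% and 0.150 ± 0.0302% (SD, n = 3), and the log2 ratios within pairs were 0.11, 0.20 and 0.33. As a share of LINE counts, L2 families made up 35.2%, 41.9% and 38.4% with the FZNF MO and 31.8%, 38.5% and 35.8% with the scrambled MO, and each pair again had the higher share with the FZNF MO. As a share of all TE counts they were higher in 2 of 3 pairs, at 1.60%, 1.70% and 1.83% against 1.41%, 1.70% and 1.70%.

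**Figure D1:**
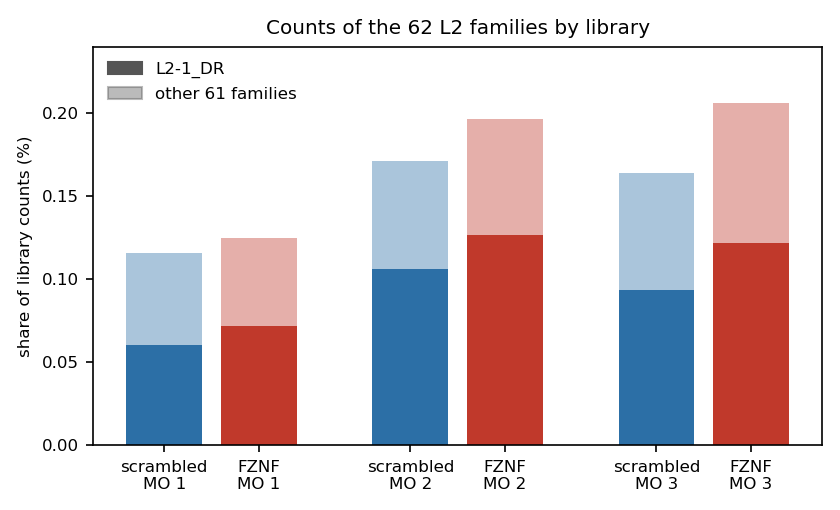
The share of library counts (%, vertical axis) assigned to the L2 families in each of the 6 libraries, with L2-1_DR in solid colour and the other L2 families in lighter colour. Both libraries of batch 1 are lowest, at 0.116% and 0.125%, and L2-1_DR takes more than the rest in every library.

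The L2 signal was carried mainly by L2-1_DR. Of all L2 counts, L2-1_DR took 57.5%, 64.4% and 59.1% in the FZNF MO libraries of batches 1, 2 and 3 and 52.0%, 61.9% and 57.0% in the scrambled MO libraries, a higher share with the FZNF MO in each pair. The exact 95% interval was 56.9% to 58.1% for the FZNF MO and 51.3% to 52.7% for the scrambled MO library of batch 1, the largest difference among the pairs. These intervals too cover counting error only, not the spread between libraries. The 5 families with the most counts, L2-1_DR, L2-2_DRe, L2-5_DRe, L2-3_DRe and L2-1B_DR, took 79.9% to 84.4% of L2 counts in a library. Without L2-1_DR, the L2 share of library counts was 0.0692 ± 0.0157% and 0.0638 ± 0.00757% (SD, n = 3), with log2 ratios of -0.07, 0.10 and 0.26. The pair of batch 1 thus turned direction once the leading family was left out, and the higher share in 3 of 3 pairs rested on it.

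Counts per family varied widely. A total of 35 families had a mean of at least 50 counts per library and 27 had fewer, while 4 had at least 1000. The smallest totals were 32 counts for Crack-7_DR, 50 for L2-47_DR and 63 for CR1-55_DR. Crack-7_DR had 6, 2 and 13 counts with the FZNF MO and 6, 0 and 5 with the scrambled MO. L2-47_DR had 0, 4 and 8 counts against 9, 27 and 2, and 27 of its 50 counts came from the scrambled MO library of batch 2. A count of 0 allows up to 3 counts, which is 0.158 CPM in the scrambled MO library of batch 2 and 0.145 CPM in the FZNF MO library of batch 1. These 3 families did not pass the filter on low counts, which left 59 of the 62 for the test.

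Most L2 families were lowest in injection batch 1. Of the 59 tested families, 43 (72.9%) had their lowest batch mean there, beside 38.0% of all tested features, 11 in batch 2 and 5 in batch 3. The range of the 3 batch means had a median of 0.70 on the log2 scale, beside 0.58 over all features, and the absolute difference between the conditions a median of 0.30, beside 0.29. The difference between these shares was not tested. Counts of all LINE families, L2 included, were also fewest in batch 1, at 73081 with the FZNF MO and 62317 with the scrambled MO. The other libraries held 76557 to 89971. These LINE counts were not scaled to library totals, and L2 families are part of them. The L2 share of LINE counts was itself lowest in batch 1 within each group, at 35.2% with the FZNF MO and 31.8% with the scrambled MO. Whether a low batch 1 is particular to L2 was not tested. The lowest batch was not counted for other TE families. The injection batch was a term of the fit, and the fitted values are therefore within pairs.

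No L2 family passed the test for a difference between the FZNF MO and the scrambled MO. By edgeR's quasi-likelihood test, with a log2 fold change of 0.32 or more in size and p adjusted to under 0.05 by the Benjamini-Hochberg procedure, 0 of 59 families were called higher, against 3.27% of all tested features, and 0 were called lower, against 2.18%. At an unadjusted p under 0.05, 7 families (11.9%) were higher, beside 10.4% of all features, and 2 (3.39%) were lower, beside 9.24%. Of all TE families, 10.8% were higher and 3.75% lower by the same measure. DESeq2 called 2 families higher, CR1-25_DR and L2-13_DRe, and 0 lower, where its calls over all features were 4.88% and 3.32%. The smallest edgeR adjusted p of any L2 family was 0.0617 and 3 families were under 0.1. The standard error of a family's log2 fold change ran from 0.09 to 0.88, so a change as small as the fold threshold would not be detectable in many of them. With no filter on low counts edgeR called 3 families higher, CR1-25_DR, L2-13_DRe and L2-1_DR, and 1 lower, L2-4_DRe, where 4.23% of all features were called higher and 2.88% lower. Without batch 1, edgeR called L2-13_DRe and CR1-44_DR higher (log2 fold changes 1.25 and 0.73, edgeR adjusted p = 0.0396 and 0.0324) and 0 families lower, where the shares of all features were 2.59% and 1.39%. Without batch 3, it called L2-4_DRe lower (log2 fold change -1.05, edgeR adjusted p = 0.0256) and 0 families higher, where the shares of all features were 5.02% and 6.94%.

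The fitted values spread to both sides of 0, with 37 families above and 22 below. The median log2 fold change was 0.07, with quartiles of -0.17 and 0.41, beside -0.01 over all tested features, 0.04 over all TE families and -0.02 over Ensembl genes. The medians of the pairwise log2 ratios of L2 families were -0.03, 0.13 and 0.24 in batches 1, 2 and 3. In 16 families (27.1%) the FZNF MO library was the higher one in 3 of 3 pairs, beside 20.9% of all features, and in 9 (15.3%) the lower one, beside 21.6%. The 3 libraries of each condition did not overlap in 6 families, all higher with the FZNF MO (10.2%, beside 8.47% of all features). Those were CR1-25_DR, CR1-22_DR, L2-13_DRe, L2-45_DR, CR1-49_DR and Crack-6_DR, of which the last 3 were named after their values were seen. These last 3 were sparse, with means of 18.8, 17.8 and 16.3 counts per library (edgeR adjusted p = 0.445, 0.622 and 0.586). No family had libraries apart in the lower direction, beside 8.47% of all features, 4.01% of all TE families and 5.91% of other LINE families. Apart in the higher direction were 9.09% of all TE families and 8.86% of other LINE families. Lower in 3 of 3 pairs were 13.8% of all TE families and 15.2% of other LINE families, while 23.8% and 18.1% were higher.

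**Figure D2:**
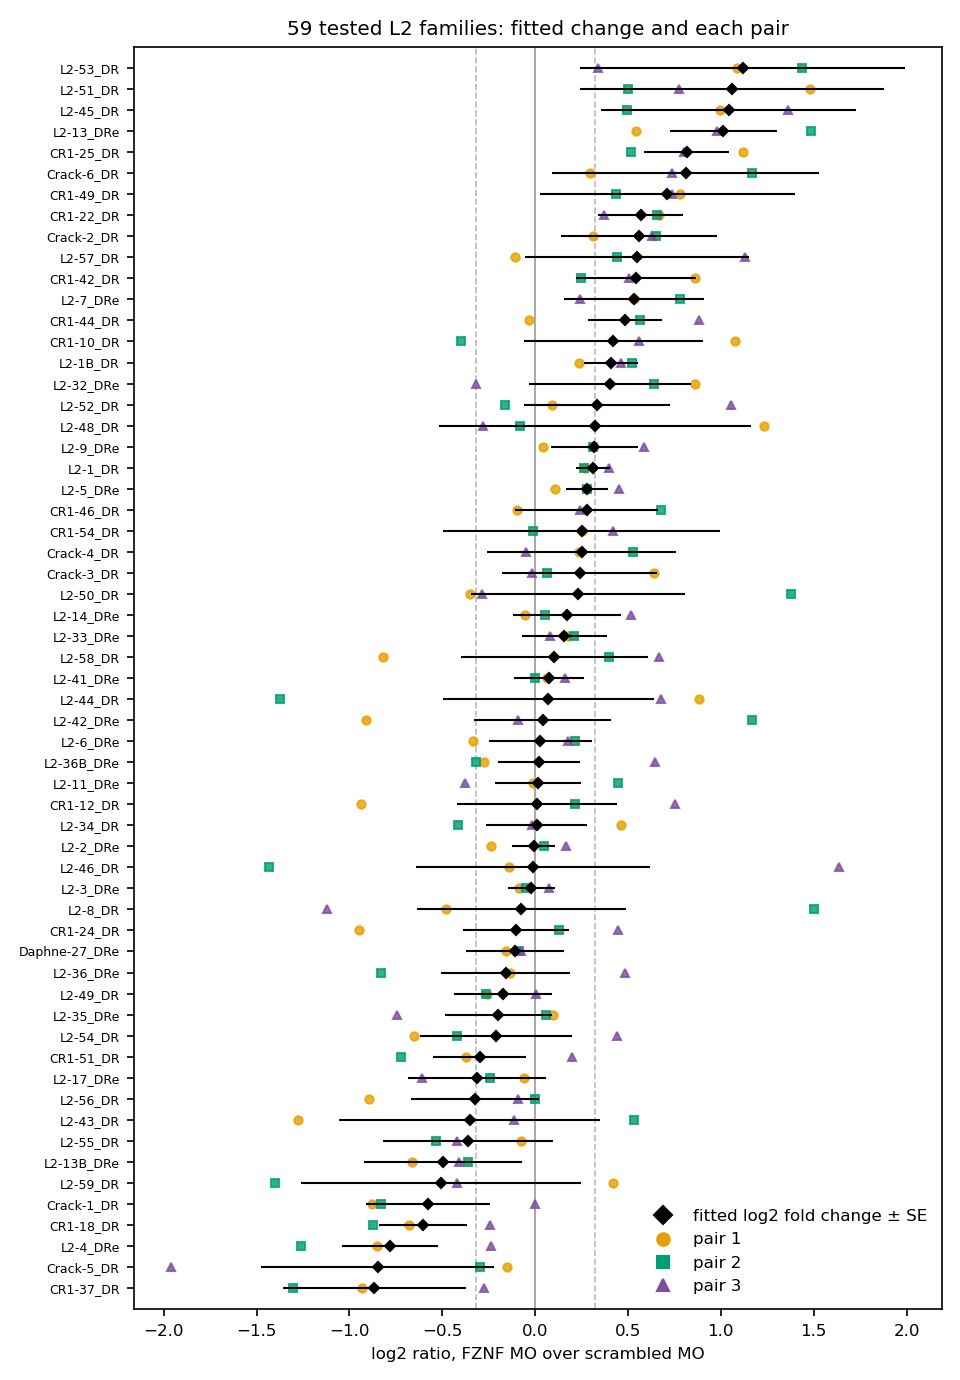
The fitted log2 fold change of each of the 59 tested L2 families (diamonds, with the standard error as bars) and the log2 ratio of each of the 3 pairs (symbols), FZNF MO over scrambled MO. The values run from -0.87 for CR1-37_DR to 1.12 for L2-53_DR, and the 3 pairs of a family often lie on both sides of 0.

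The 5 families with the most reads differed in how closely the pairs followed each other. L2-1_DR had 713, 1291 and 1226 CPM with the FZNF MO in batches 1, 2 and 3 and 592, 1077 and 930.0 CPM with the scrambled MO, where CPM values are scaled by TMM factors. Each pair had the higher value with the FZNF MO, while the groups overlapped because the FZNF MO library of batch 1 lay below 2 scrambled MO libraries. Its log2 fold change was 0.31 (SE 0.09, edgeR adjusted p = 0.0742), the smallest standard error of any L2 family, and a value just under the fold threshold. L2-1B_DR, by name a variant of L2-1_DR, had 34.9, 44.5 and 51.5 CPM against 29.7, 30.9 and 37.4 CPM. It too was higher in every pair, with overlap only because the FZNF MO library of batch 1 lay below the scrambled MO library of batch 3 (log2 fold change 0.41, SE 0.15, edgeR adjusted p = 0.137). Reads of L2-1_DR and L2-1B_DR may be split between both, so they were not read as independent.

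L2-5_DRe had 107, 146 and 178 CPM with the FZNF MO and 99.6, 120.0 and 130.2 CPM with the scrambled MO. The log2 ratios of the pairs were 0.11, 0.28 and 0.45, all above 0, and the groups overlapped (log2 fold change 0.28, SE 0.11, edgeR adjusted p = 0.194). L2-2_DRe, second in reads with 9.28% of L2 counts, had 115, 149 and 195 CPM against 135, 144 and 173 CPM. Its pairs pointed in different directions, and its log2 fold change of -0.01 (SE 0.12) took the opposite sign under several other settings. L2-3_DRe had 50.1, 62.1 and 69.05 CPM against 53.2, 64.3 and 65.6 CPM. The same batch order stood out in both groups of L2-3_DRe, and its log2 fold change was -0.02 (SE 0.13).

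The next families by reads had larger errors. CR1-44_DR had 14.8, 37.2 and 36.0 CPM with the FZNF MO and 15.1, 25.1 and 19.5 CPM with the scrambled MO. The libraries of batch 1 were almost level and those of batches 2 and 3 were apart, which gave a log2 fold change of 0.48 (SE 0.20, edgeR adjusted p = 0.200). L2-36B_DRe had 12.1, 18.7 and 30.7 CPM against 14.7, 23.4 and 19.5 CPM. Only the pair of batch 3 was higher with the FZNF MO in L2-36B_DRe, and its log2 fold change was 0.02 (SE 0.22). L2-41_DRe had 12.5, 20.9 and 15.4 CPM against 11.9, 20.9 and 13.8 CPM (log2 fold change 0.07, SE 0.19). L2-11_DRe had 13.7, 12.1 and 11.05 CPM against 13.8, 8.83 and 14.4 CPM (log2 fold change 0.02, SE 0.23). In both families the groups overlapped throughout, and batch 2 of L2-41_DRe was the highest in both conditions.

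Among families with a mean of at least 50 counts and higher with the FZNF MO in every pair, CR1-25_DR, L2-13_DRe and CR1-22_DR had the groups apart. They were 8.57% of the 35 L2 families with that mean. Of features at any tested count, 8.47% were apart in that direction, and of all TE families 9.09%. CR1-25_DR, one of the 10 most counted L2 families, had 12.2, 12.8 and 18.3 CPM with the FZNF MO and 5.56, 8.93 and 10.4 CPM with the scrambled MO. Its lowest FZNF MO library lay above its highest scrambled MO library, with a log2 fold change of 0.82 (SE 0.23, edgeR adjusted p = 0.0617, DESeq2 adjusted p = 0.0375). L2-13_DRe, whose stretch is printed above, had 7.48, 9.31 and 10.3 CPM against 5.11, 3.26 and 5.16 CPM. The ratio of L2-13_DRe differed between pairs, at 0.54, 1.49 and 0.98 on the log2 scale, and the log2 fold change was 1.01 (SE 0.29, edgeR adjusted p = 0.0659, DESeq2 adjusted p = 0.0453). CR1-22_DR had 10.6, 12.7 and 12.5 CPM against 6.65, 8.04 and 9.63 CPM. Its spread within each condition was smaller than the gap between the means of 11.9 ± 1.16 and 8.11 ± 1.49 CPM (SD, n = 3), with a log2 fold change of 0.57 (SE 0.23, edgeR adjusted p = 0.186).

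CR1-42_DR and L2-7_DRe were also higher in every pair at lower counts. CR1-42_DR had 4.15, 5.37 and 5.82 CPM against 2.24, 4.52 and 4.07 CPM (log2 fold change 0.54, SE 0.32, edgeR adjusted p = 0.393). L2-7_DRe had 3.28, 3.50 and 4.02 CPM against 2.24, 1.996 and 3.38 CPM (log2 fold change 0.53, SE 0.38, edgeR adjusted p = 0.481). In both, a scrambled MO library reached into the FZNF MO range.

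**Figure D3:**
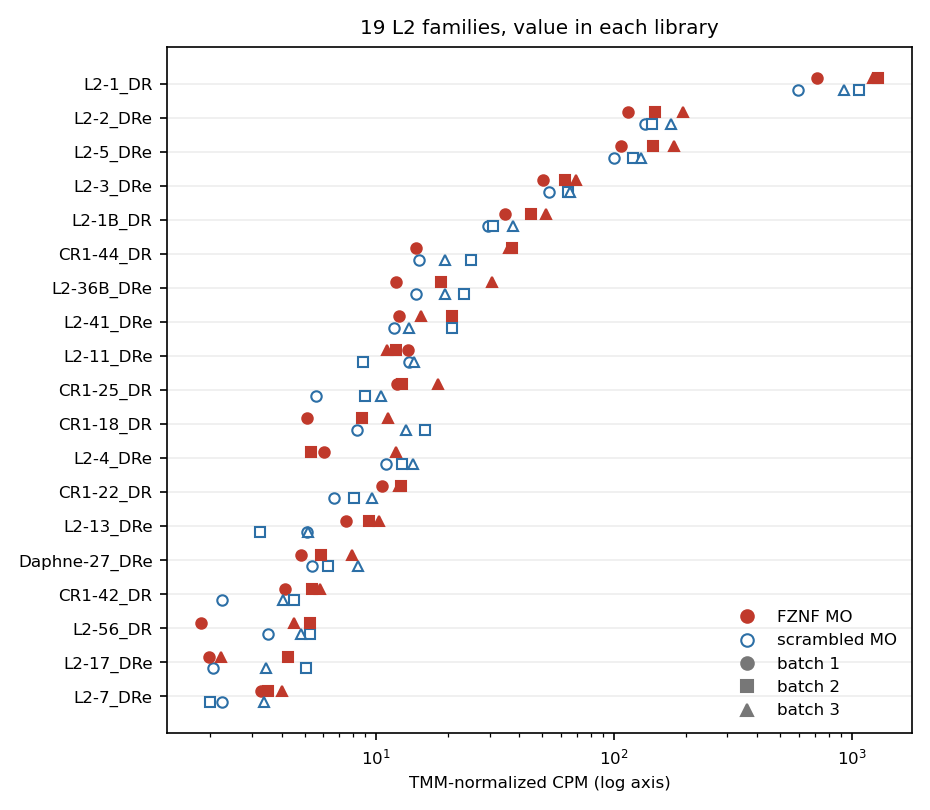
TMM-normalized CPM (log axis) of 19 L2 families in each library, with filled symbols for the FZNF MO, open symbols for the scrambled MO and the shape giving the batch. L2-1_DR lies at 592 to 1291 CPM and far to the right of the others, and filled and open symbols interleave in most families.

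Of 35 families with a mean of at least 50 counts, 5 (14.3%) were lower with the FZNF MO in every pair and below 0 in the fit. Lower in every pair were 21.6% of all features, 13.8% of all TE families and 15.2% of other LINE families. None of the 5 had the groups apart, where 8.47% of all features and 4.01% of all TE families were apart in the lower direction. L2-4_DRe had 6.03, 5.31 and 12.1 CPM with the FZNF MO and 10.96, 12.9 and 14.3 CPM with the scrambled MO. The FZNF MO library of batch 3 stood above the other FZNF MO libraries of L2-4_DRe and within the scrambled MO range, with a log2 fold change of -0.78 (SE 0.26, edgeR adjusted p = 0.108). CR1-18_DR had 5.11, 8.68 and 11.2 CPM against 8.26, 15.97 and 13.3 CPM. Its lowest scrambled MO library lay within the FZNF MO range, and the log2 fold change was -0.60 (SE 0.24, edgeR adjusted p = 0.176). These were the only L2 families below 0 at an unadjusted p under 0.05. The others were small differences. L2-56_DR had 1.83, 5.25 and 4.50 CPM against 3.50, 5.25 and 4.81 CPM (log2 fold change -0.32, SE 0.34), with batch 2 almost level. L2-17_DRe had 1.98, 4.25 and 2.22 CPM against 2.07, 5.04 and 3.44 CPM (log2 fold change -0.31, SE 0.37). Daphne-27_DRe, the single family of its name, had 4.82, 5.87 and 7.93 CPM against 5.39, 6.25 and 8.37 CPM (log2 fold change -0.11, SE 0.27), with log2 ratios of -0.16, -0.09 and -0.08 in the pairs.

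The extremes of the fitted values came from sparse families. L2-53_DR, with the highest log2 fold change of 1.12 (SE 0.88, edgeR adjusted p = 0.532), had 20, 5 and 21 counts with the FZNF MO and 7, 1 and 17 with the scrambled MO. CR1-37_DR, with the lowest of -0.87 (SE 0.49, edgeR adjusted p = 0.366), had 1.54, 0.750 and 2.16 CPM against 3.04, 1.996 and 2.64 CPM. Both were chosen after their values were seen. Of the 28 families whose log2 fold change was 0.32 or more in size, 16 had a mean of fewer than 50 counts. The median standard error was 0.59 in families under that mean and 0.27 in those above it, and the median log2 fold changes were 0.24 and 0.02. None of the sparse families had an unadjusted p under 0.05.

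**Figure D4:**
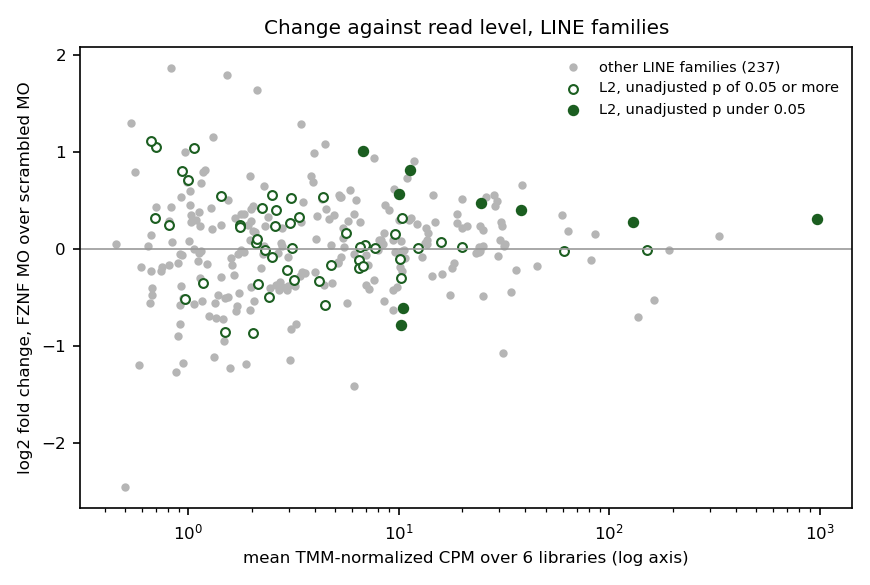
The log2 fold change of LINE families (vertical axis, FZNF MO over scrambled MO) against the mean TMM-normalized CPM over 6 libraries (log axis), with L2 families set apart from the other LINE families. The L2 values fan out toward low CPM, from -0.87 to 1.12, and narrow at high CPM, with L2-1_DR farthest right at 0.31.

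Families named CR1 and those named L2 both lay on either side of 0. Of 13 tested CR1-named families, 9 were above 0 and 4 below, with a median log2 fold change of 0.28, 3 of them (23.1%) at an unadjusted p under 0.05 in the higher direction and 1 (7.69%) in the lower, beside 10.4% and 9.24% of all features. The 39 tested families named L2 had a median of 0.04, with 24 above 0 and 15 below. The 6 tested Crack families had a median of 0.24, with 0 at an unadjusted p under 0.05. These medians were not tested against each other. Of the 28 tested families with the shared stretch, 16 were above 0 and 12 below, with a median log2 fold change of 0.05 and the full range from -0.87 to 1.12. L2-13_DRe and L2-4_DRe, which both carry it, lay on opposite sides of 0, and CR1-44_DR and CR1-18_DR did too.

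The other LINE families gave a frame for these values. Their 237 tested families had a median log2 fold change of 0.03. By edgeR 1 was called higher and 1 lower, where 3.27% and 2.18% of all features were called. At an unadjusted p under 0.05, 17 (7.17%) were higher and 9 (3.80%) lower, beside 10.4% and 9.24% of all features. The largest superfamilies among them, L1 with 104 tested families and L1-Tx1 with 63, had medians of -0.01 and 0.04. No difference between the superfamilies was tested.

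Genes from lists on the piRNA pathway and germ plasm, on chromatin, and on RNA and reverse transcription were read beside all tested features. Of those features, 3.27% were called higher and 2.18% lower. Of 15 tested piRNA pathway and germ plasm genes, 0 were called by edgeR in either direction. At an unadjusted p under 0.05, 1 was higher and 2 were lower, beside 10.4% and 9.24% of all features. Values nearest to a call were those of tdrd9, a helicase of the piRNA pathway in mice, at 64.0 ± 33.0 CPM with the FZNF MO against 42.8 ± 12.9 CPM with the scrambled MO (SD, n = 3; log2 fold change 0.51, SE 0.15, edgeR adjusted p = 0.0729). The piRNA methyltransferase henmt1 had 2.18 ± 0.335 against 4.24 ± 0.939 CPM (SD, n = 3; log2 fold change -0.94, SE 0.38, edgeR adjusted p = 0.189). Of 28 tested heterochromatin and DNA methylation genes, 4 were higher and 3 lower at an unadjusted p under 0.05. The shares of all features were 10.4% and 9.24%. After adjustment, 2 (7.14%) of these genes were called higher and 0 lower. The transcriptional corepressor trim33 rose from 133 ± 8.03 to 204 ± 25.4 CPM (SD, n = 3; log2 fold change 0.61, SE 0.12, edgeR adjusted p = 0.0123). The other, morc3b, a member of the MORC ATPases, rose from 41.3 ± 18.6 to 75.7 ± 34.3 CPM (SD, n = 3; log2 fold change 0.89, SE 0.21, edgeR adjusted p = 0.0275). The log2 ratios of morc3b within pairs were 1.40, 1.11 and 0.15, and its groups overlapped. Of 10 tested genes listed for RNA and reverse transcription, 0 were called higher and 1 (10%) lower. This was dicer1, the nuclease that cuts double-stranded RNA, which fell from 25.5 ± 1.45 to 15.9 ± 1.58 CPM (SD, n = 3; log2 fold change -0.68, SE 0.18, edgeR adjusted p = 0.0488). The relation of these genes to the L2 counts was not tested.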

How the data were processed

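Zebrafish shield-stage embryos were profiled in 6 strand-specific poly(A) RNA-seq libraries, 3 per MO. Per the study's methods and processing notes, the authors ran FastQC 0.11.9, aligned reads to GRCz11 with STAR 2.7.5a allowing multiple hits, and obtained gene and TE family counts from TEcount of TEtranscripts. The sources used here do not give the strand setting of that step. The values deposited by the authors are raw counts per feature, and 0 columns of per-sample values were left unused. Reads in multiple copies were shared out among families, which limits how far related families can be separated.

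Counts of all features were fitted with edgeR 4.0.16 (R 4.3.3, limma 3.58.1): filterByExpr by condition (17804 features tested), TMM factors, and the quasi-likelihood test in a model of injection batch plus condition. A call required p under 0.05 after Benjamini-Hochberg adjustment over all tested features, and a log2 fold change of 0.32 or more in size. The study used the same cutoffs, with DESeq2 rather than edgeR. Each edgeR standard error was derived from the test, as the absolute log2 fold change divided by the square root of its F statistic. Pair ratios used CPM plus 0.1. The replicate number is the injection batch in the methods. Deviations from the group means correlated within batches (r = 0.45, 0.33 and 0.24), against -0.31 to 0.06 between batches. For L2 families the values were 0.21, 0.34 and 0.21, against -0.25 to 0.03. Deviations within a group sum to 0, so the low values between batches follow in part from the calculation. No 2 libraries agreed within sampling noise (smallest chi-square per degree of freedom 22.5). The p-values measure variation over 3 pairs of pooled embryos, not over embryos. Named families were those called, the 10 with the highest mean count, and the up to 6 with the largest rise and the largest fall among families with a mean of at least 50 counts and 3 of 3 pairs in the same direction; host lists were matched by symbol (16 of 20, 28 of 44 and 12 of 20 genes). The members, lists and tests were chosen with earlier results of these data known. Alternatives were DESeq2 1.42.0, RLE factors, TMM factors from Ensembl genes, a model without batch, a model with collection day in its place, no count filter, a minimum of 50 counts in 3 libraries, no minimum fold, and fits that dropped a pair, or dropped a single library without a batch term. The test was also tried on counts simulated from a fit to these same data, and the outcome is not reported here.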

Additional observations from a re-analysis of the deposited data

How the results depend on the processing

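The call of 0 L2 families higher and 0 lower held with RLE factors, TMM factors from Ensembl genes, the stricter filter and no minimum fold. With no replicate block and with collection day as the block, 0 were called too. There the standard error of L2-1_DR was 0.26 in both, against 0.09 in the main fit. A count of 0 in these less sensitive fits therefore adds little. DESeq2 called 2 higher, and with no count filter edgeR called 3 higher (CR1-25_DR, L2-13_DRe and L2-1_DR, at log2 fold changes of 0.83, 1.03 and 0.33) and 1 lower (L2-4_DRe, at -0.77), where 4.23% and 2.88% of all features were called. With a pair dropped, or a library dropped from a model lacking the batch term, 0 to 2 were called higher and 0 to 1 lower. At an unadjusted p under 0.05, the fit with no replicate block gave 2 higher and 0 lower, collection day as the block gave 3 and 1, and leaving out libraries gave 1 to 7 higher and 0 to 2 lower. The shares of all features at that unadjusted p were not counted in these fits. Whether the L2 counts moved more than those of all features thus cannot be read from them. The median log2 fold change ran from -0.044 to 0.31 with libraries left out. Of 133 values of the 19 named families with all libraries, 119 kept their direction and side of the threshold, 8 turned and 6 passed it. L2-2_DRe turned to 0.018 with no replicate block, 0.00021 with collection day as the block, 0.0039 with RLE factors and with DESeq2, 0.0061 with TMM factors from Ensembl genes and 0.0092 with no count filter. L2-11_DRe turned to -0.0075 and -0.0011 with no replicate block and collection day as the block. With libraries left out, 146 of 171 values kept both, 22 turned and 3 passed the threshold. Ranges that crossed 0 were -0.19 to 0.19 for L2-2_DRe, -0.12 to 0.10 for L2-3_DRe, -0.32 to 0.36 for L2-36B_DRe, -0.15 to 0.35 for L2-41_DRe, -0.19 to 0.23 for L2-11_DRe, -0.32 to 0.10 for Daphne-27_DRe, -0.51 to 0.11 for L2-56_DR and -0.73 to 0.039 for L2-17_DRe. The log2 ratio of the mean summed shares was 0.23, and 0.25 relative to Ensembl counts. Without L2-1_DR it was 0.12, with the pair of batch 1 at -0.07. The causes were not tested. With 3 pairs, families under 50 counts mostly carry standard errors too large to show changes of the threshold size.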
